A study of Homo sapiens with 4 samples.

Results

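The nuclear-encoded subunits of the respiratory chain were examined in human lung cancer cells given either strand of *miR-486*. The members were chosen by gene symbol: protein-coding genes whose RefSeq symbols start with *NDUFA*, *NDUFB*, *NDUFC*, *NDUFS* or *NDUFV*, the genes *SDHA* to *SDHD*, *UQCR* genes, *CYC1*, *COX4* to *COX8* genes, and *ATP5F*, *ATP5M* or *ATP5P* genes. Assembly factors, pseudogenes, antisense genes and readthrough genes were left out. This gave 88 genes, of which 86 had a probe, among 22439 genes named on the arrays. By complex, 37 belonged to complex I, 4 to complex II, 10 to complex III, 19 to complex IV and 18 to complex V. A549, the established line used, derives from a human lung adenocarcinoma and was grown in RPMI medium. The cells received *miR-486-5p* (the 5p strand) or *miR-486-3p* (the 3p strand) with Lipofectamine RNAiMAX, and mock cells received the reagent without a miRNA. Total RNA, extracted with Trizol and labeled with Cy3, was hybridized to 4 one-color Agilent arrays, 1 for each strand and 2 for mock, all on 1 slide and read in 1 scan. No strand has a replicate array, so no difference between a strand and mock has a replicate check of its own, and the number of arrays limits the precision.

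The respiratory chain is a series of protein complexes in the inner mitochondrial membrane. Complex I (NADH dehydrogenase) and complex II (succinate dehydrogenase) pass electrons to ubiquinone, complex III (cytochrome bc1) passes them to cytochrome c, and complex IV (cytochrome c oxidase) passes them to oxygen. Complex V (ATP synthase) uses the resulting proton gradient to make ATP. A few core subunits are encoded by mitochondrial DNA, while all others are made from nuclear genes and imported. Promoters of the nuclear genes are known for sites of the factors NRF1, GABP and YY1, which with the coactivator PGC-1alpha (*PPARGC1A*) act in mitochondrial biogenesis.

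A level here is the log2 of the scanner's background-corrected signal less the 75th percentile of its array, averaged over the probes of a gene. That percentile was a signal of 105 on the 5p array, 93.1 on the 3p array and 114 on each mock array. The subunit genes were represented by 109 probes, with 1 probe for 68 genes and more for 18. Of the 88 genes, 84 had every probe in use well above background on all 4 arrays, a call that the scanner software makes for each spot. *UQCRHL* and *COX7A1* had no probe, the probe of *COXFA4L2* (formerly *NDUFA4L2*) was not well above background on any array, and *COX4I2* could be used against mock for the 5p strand only, although its probe was well above background on only 1 mock array. The mock arrays lay close to each other for these genes, with a median distance of 0.0391 on the log2 scale and a largest distance of 0.335. A log2 difference is the level with a strand less the average of both mock levels, and values below −0.5 or above 0.5 were counted as lower or higher. RNA was measured in bulk, so a smaller number of cells of a kind and less RNA per cell cannot be told apart.

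Among 10 markers of this carcinoma line, 7 were well above background on every array, including *KRT8*, *KRT18*, *KRT7* and *NQO1*, and *CDH1* was on none. Of 3 alveolar type II markers only *SFTPC* was well above background, while *SFTPB* and *SFTPA1* were not. Among 6 markers of blood, endothelial and fibroblast cells, *PECAM1*, *COL3A1* and *LUM* were not well above background on any array. The level of *PTPRC*, from 2 of its 5 probes, was −1.65 with the 5p strand and −1.72 with the 3p strand, against −2.0 and −2.0 in mock. *CD3E* had −3.99 with the 5p strand and −4.04 with the 3p strand, against −4.33 and −4.04 in mock, and *CDH5* had −1.52 with the 5p strand and −2.17 with the 3p strand, against −1.39 and −1.57 in mock. The log2 differences of these 3 genes after the 5p strand were within the limits, and after the 3p strand only *CDH5* passed a limit, at −0.69 (limma adjusted p = 0.0344). The part of other cells in the results was not tested.

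After the 5p strand few subunit genes passed a limit. None of 85 genes with a value was below −0.5, against 15.9% of all 16024 genes with a value, and 6 were above 0.5, against 13.8%. Limited to probes that passed the background call on every array, 0 of 84 were lower and 5 higher, where all genes gave 15.5% and 12.5%. Their median log2 difference was 0.038 and that of all genes 0.030, with quartiles of −0.12 and 0.24 for the subunits and −0.31 and 0.31 for all genes. The sign of the subunit median depended on the scaling, as it was −0.039 under median scaling and −0.0019 with normexp background correction. With that correction 1 of 85 subunit genes was lower and 3 higher, where all genes gave 8.30% and 4.59%. The shares of all genes were not matched to the subunits for signal level.

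The genes above 0.5 included *NDUFA3*, *NDUFA13* and *NDUFS4* of complex I and *COX4I2* and *COXFA4* of complex IV. limma, fitted to all 4 arrays with the spread taken from the mock pair, called 0 of 85 subunit genes lower, against 6.66% of all 16662 genes, and 1 higher, *NDUFA3*, against 3.58%. At an unadjusted p under 0.05, limma counted 21 of the 85, and 7930 of the 16662. An ordinary t-test counted 11 lower and 16 higher without adjustment, and 4344 of all genes on either side. After adjustment it called 0 of all 16662 genes, so its lack of calls is not particular to the subunits. These calls depended on the settings, as limma with an intensity trend in its prior called 16 lower and 26 higher, where all genes gave 25% and 22.2%. On the deposited values, and without a filter on dim probes, limma called neither *NDUFA3* nor any other gene for the 5p strand. No source says that the mock arrays are separate cultures, so these p-values measure only the spread between these samples.

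After the 3p strand more subunit genes passed the limits, and on the main scale most of them were lower. Among 84 genes with a value, 18 were below −0.5 and 4 above 0.5. Over all 16419 genes, 27.2% were below −0.5 and 30.5% above 0.5. With the stricter background rule the counts were 18 and 4 of 84, and all genes gave 28.5% and 26.9%. The median of the subunits was −0.22 and that of all genes 0.058. limma called 25 of 85 subunit genes lower and 8 higher, against 31.6% and 31.9% of all genes.

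The direction of this median depended on how the arrays were scaled. On the authors' deposited log2 values the subunits had a median of 0.020, with 15 genes lower and 15 higher, where all genes gave 29.1% and 27.9%. Quantile normalization gave the same subunit counts and a median of 0.023. Median scaling moved the median of all genes to −0.32 and that of the subunits to −0.59, with 48 lower and 2 higher, where all genes gave 41.7% and 17.8%. With normexp correction 24 of 84 genes were lower and 3 higher, where all genes gave 19.1% and 15.5%. Relative to all genes the subunit median was −0.28 on the main scale, −0.28 after median scaling, −0.39 with normexp correction and 0.010 on the deposited values. Whether subunits were lower more or less often than all genes thus also depended on the setting. Of the 18 lower genes, 14 were below −0.5 under every scaling and background setting tried, and of the 4 higher genes only *COX8C* was above 0.5 under each of them.

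**Figure D1:**
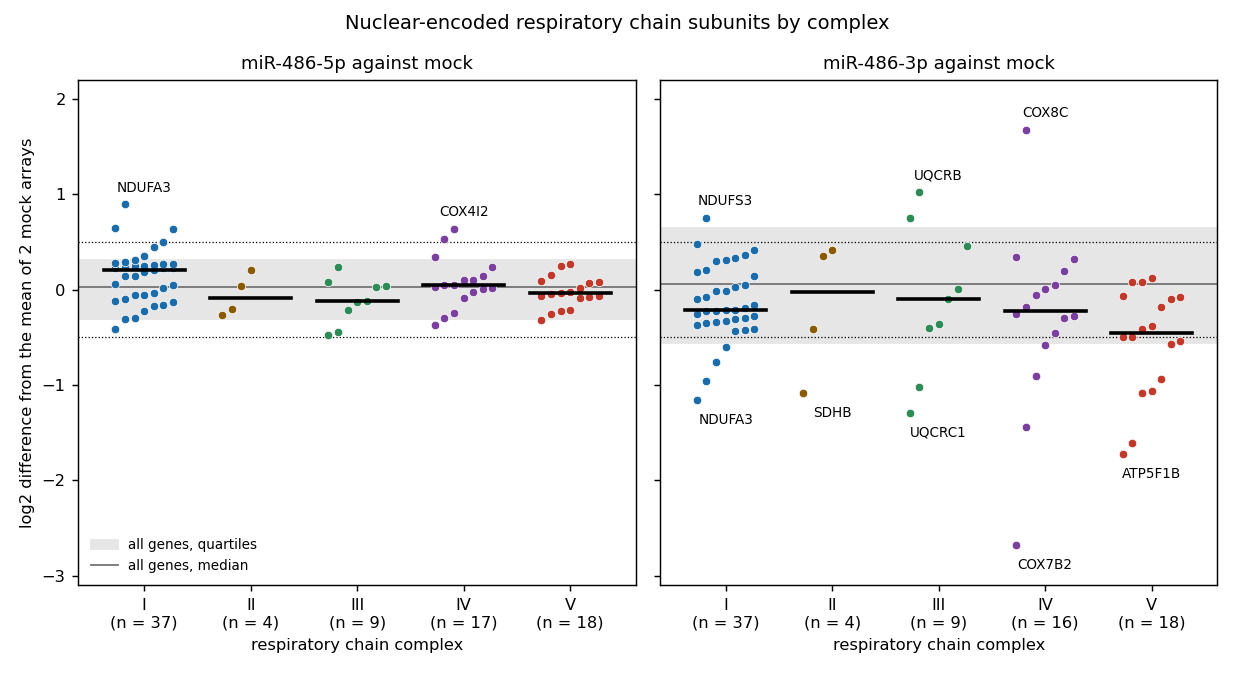
Log2 difference of each nuclear-encoded subunit gene from the average of both mock arrays (vertical axis), by complex (horizontal axis), after miR-486-5p (left) and miR-486-3p (right); points are genes, black bars medians of the complex, the gray band and line the quartiles and median of all genes, and dotted lines the limits of 0.5. After miR-486-5p no point lies below −0.5, although under median scaling 2 do, and after miR-486-3p complex V has the lowest median, −0.45, which stays below 0 under every scaling, unlike those of complexes I to IV.

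**Figure D2:**
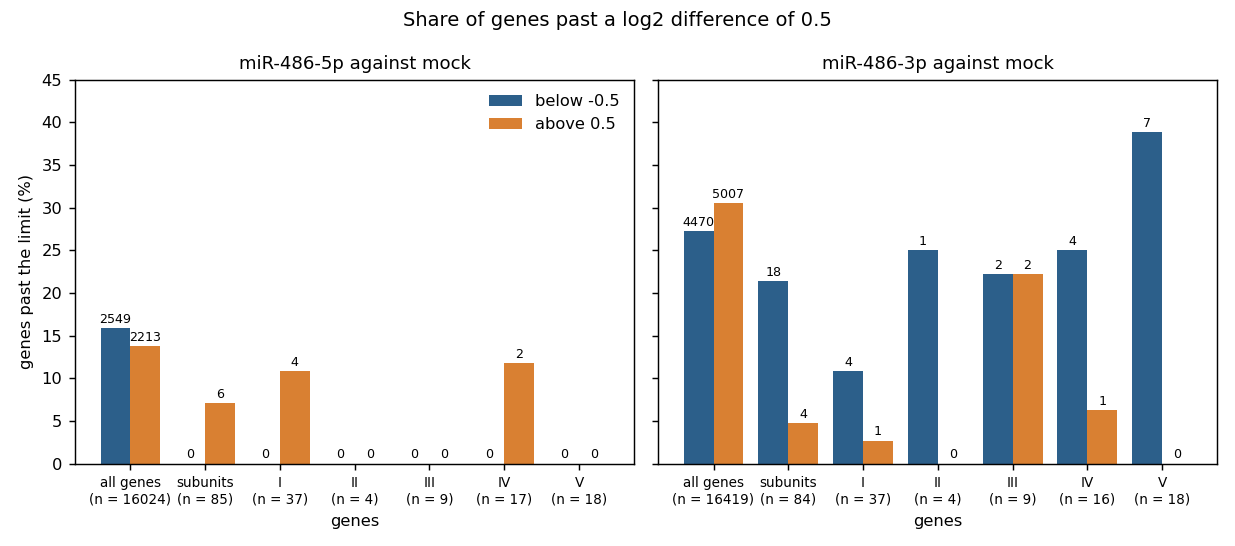
Percentage of genes below −0.5 (blue) and above 0.5 (orange) on the log2 scale, with the number of genes over each bar, for all genes, all subunits and complexes I to V, after miR-486-5p (left) and miR-486-3p (right). Complex V after miR-486-3p has 7 of 18 genes below and 0 above on the main scale, against 27.2% and 30.5% of all genes.

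The medians of the complexes differed. They were 0.20 for complex I, −0.084 for II, −0.12 for III, 0.044 for IV and −0.037 for V after the 5p strand. Complex I kept a positive median under every scaling and background setting, from 0.12 to 0.24, while that of complex IV was −0.033 under median scaling. After the 3p strand the medians were −0.21 for complex I, −0.029 for II, −0.096 for III, −0.22 for IV and −0.45 for V, but on the deposited values those of complexes I to IV were positive, at 0.080, 0.10, 0.042 and 0.018, as they were after quantile normalization. The median of complex V stayed below 0 under all of these settings, from −0.83 to −0.17. Counted on the deposited values, the 3p strand had 3 lower and 7 higher in complex I, 1 lower and 2 higher in II, 2 lower and 3 higher in III, 4 lower and 3 higher in IV and 5 lower and 0 higher in V, where all genes gave 29.1% and 27.9%. No test compared the complexes with each other.

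**Figure D3:**
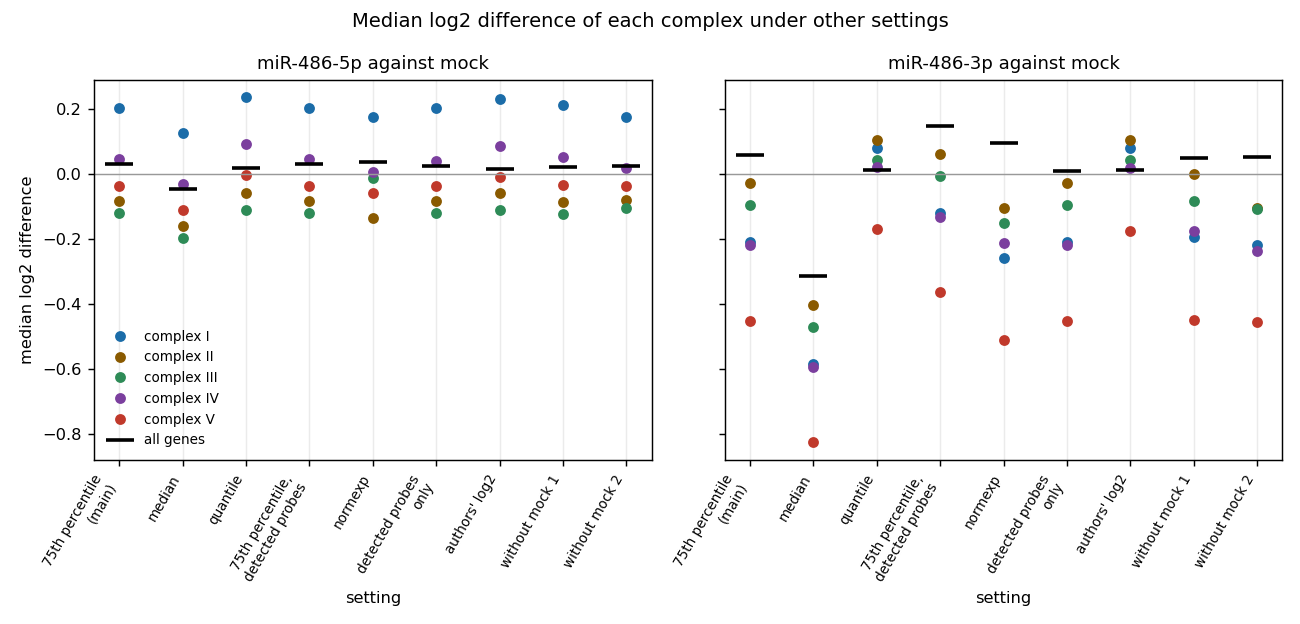
Median log2 difference (vertical axis) of complexes I to V (colored points) and of all genes (black dashes) under each setting (horizontal axis), after miR-486-5p (left) and miR-486-3p (right). After miR-486-3p complex V lies below all genes in every setting shown, and complexes I to IV lie above 0 under quantile normalization and on the authors' values.

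Promoter sequences from RefSeq (GRCh38.p14) were searched for the sites of the factors named above. Each window runs from 250 bases before to 50 bases after a transcription start, and 71 of the 88 subunit genes matched, with 85 windows. The letters searched on both strands were GCGCATGCG for NRF1, CCGGAAG for the ETS family to which GABPA belongs, and AAGATGGCG for YY1. The NRF1 letters were in 12.9% of subunit windows and 1.92% of all 35116 windows, the ETS letters in 25.9% and 10.3%, and the YY1 letters in 11.8% and 1.75%. Windows of protein-coding genes gave 2.36% for NRF1, 12.8% for ETS and 2.41% for YY1. By complex the ETS letters were in 12.8% of windows for I, 66.7% for II, 42.9% for III, 26.3% for IV and 41.2% for V. At least 1 of the 3 was in 41.2% of subunit windows, against 13.1% of all windows and 16.4% of those of protein-coding genes. Among subunits below −0.5 after the 3p strand it was in 5 of 15 windows, among those above 0.5 in 2 of 3, and among those within the limits in 28 of 65. A match is a description of letters, not of binding.

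The windows shown belong to the lowest subunit of complexes I to IV after the 3p strand and to the highest subunit of complexes I and III with a window in the table. Capitals mark the searched letters, and a window without capitals holds none of them. *NDUFA3* is at chr19:54102605-54102904 on the plus strand and *NDUFS3* at chr11:47578824-47579123 on the plus strand. *SDHB* is at chr1:17053983-17054282 on the minus strand, *UQCRC1* at chr3:48609597-48609896 on the minus strand and *UQCR11* at chr19:1605413-1605712 on the minus strand. *COX7B2* is at chr4:46909196-46909495 on the minus strand. All are printed 5′ to 3′ in the direction of the gene.
NDUFA3: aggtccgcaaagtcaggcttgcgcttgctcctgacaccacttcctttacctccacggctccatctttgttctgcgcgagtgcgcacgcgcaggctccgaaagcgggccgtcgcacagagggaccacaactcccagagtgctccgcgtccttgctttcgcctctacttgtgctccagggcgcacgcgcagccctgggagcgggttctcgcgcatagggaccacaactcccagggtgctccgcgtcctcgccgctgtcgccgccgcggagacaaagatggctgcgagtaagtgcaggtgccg
NDUFS3: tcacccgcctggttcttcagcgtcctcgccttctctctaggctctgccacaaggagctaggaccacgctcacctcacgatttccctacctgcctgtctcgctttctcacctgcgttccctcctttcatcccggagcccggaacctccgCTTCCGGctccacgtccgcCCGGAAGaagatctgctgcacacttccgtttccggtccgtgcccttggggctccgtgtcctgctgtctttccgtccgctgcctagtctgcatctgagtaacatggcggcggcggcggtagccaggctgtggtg
SDHB: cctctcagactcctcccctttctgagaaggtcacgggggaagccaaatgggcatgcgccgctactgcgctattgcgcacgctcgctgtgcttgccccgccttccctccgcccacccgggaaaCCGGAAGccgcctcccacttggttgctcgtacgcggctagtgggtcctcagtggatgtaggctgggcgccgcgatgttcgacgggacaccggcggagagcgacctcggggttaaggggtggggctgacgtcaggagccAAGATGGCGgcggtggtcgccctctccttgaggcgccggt
UQCRC1: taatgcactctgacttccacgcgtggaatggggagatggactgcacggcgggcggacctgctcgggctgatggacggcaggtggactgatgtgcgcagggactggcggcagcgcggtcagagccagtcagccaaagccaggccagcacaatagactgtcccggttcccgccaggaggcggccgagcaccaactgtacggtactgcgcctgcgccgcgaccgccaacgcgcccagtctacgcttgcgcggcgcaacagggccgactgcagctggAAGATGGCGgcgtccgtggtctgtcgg
UQCR11: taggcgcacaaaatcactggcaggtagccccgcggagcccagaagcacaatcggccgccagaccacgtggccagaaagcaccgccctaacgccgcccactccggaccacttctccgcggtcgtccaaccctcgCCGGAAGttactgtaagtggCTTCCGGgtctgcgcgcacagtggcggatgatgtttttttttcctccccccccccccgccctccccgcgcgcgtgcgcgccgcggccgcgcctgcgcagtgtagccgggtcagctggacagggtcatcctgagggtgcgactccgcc
COX7B2: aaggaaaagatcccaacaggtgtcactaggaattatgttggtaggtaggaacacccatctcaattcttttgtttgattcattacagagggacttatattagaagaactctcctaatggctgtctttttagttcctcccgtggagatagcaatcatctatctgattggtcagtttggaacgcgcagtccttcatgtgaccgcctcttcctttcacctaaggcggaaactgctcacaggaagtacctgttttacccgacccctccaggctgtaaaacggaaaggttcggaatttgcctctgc
*NDUFS3* holds the ETS letters from 102 and from 83 bases before the start, on opposite strands, and *UQCR11* holds them from 117 and from 97 bases before it, also on opposite strands. *SDHB* holds the ETS letters from 128 bases before the start and the YY1 letters from 10 bases after it. *UQCRC1* holds only the YY1 letters, from 23 bases after the start. The windows of *NDUFA3* and *COX7B2* hold none of the letters, nor do those of *COX8C*, the highest subunit of complex IV, and *ATP5PB*, the lowest of complex V with a window, which are not shown.

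Complex I oxidizes NADH in its matrix arm and pumps protons through its membrane arm, and all 37 nuclear genes had a value for both strands. After the 5p strand 0 were below −0.5 and 4 above 0.5 (15.9% and 13.8% of all genes), and after the 3p strand 4 were below and 1 above (27.2% and 30.5%). For the 3p strand, limma called 7 lower and 3 higher (31.6% and 31.9% of all genes). *NDUFA3*, an accessory subunit, stood at 5.08 and 5.07 in mock, 5.97 after the 5p strand and 3.92 after the 3p strand. It was above both mock arrays with the 5p strand and below both with the 3p strand. The log2 differences were 0.89 (limma adjusted p = 0.0479, SE 0.0873) and −1.16 (limma adjusted p = 0.00977), or 186% and 44.7% of the mock average. Between the strands the difference was −2.05.

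*NDUFA13*, also known as GRIM-19 and first described as a cell death regulator, was 5.01 and 5.00 in mock, 5.65 after the 5p strand and 4.24 after the 3p strand. Its differences were 0.64 (limma adjusted p = 0.0551) and −0.76 (limma adjusted p = 0.0160), and the difference between the strands was −1.40. As with *NDUFA3*, the strand arrays lay on opposite sides of the mock arrays. Both genes stayed past the limits, in these directions, under every scaling and background setting. *NDUFA13* after the 3p strand was only just past its limit on the deposited values, at −0.505.

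Core subunits of the matrix arm gave other patterns. *NDUFS3* was 4.82 and 4.81 in mock, 4.95 after the 5p strand and 5.57 after the 3p strand, and with the 3p strand rose by 0.75 (limma adjusted p = 0.0163), or 1.01 on the deposited values and 0.38, within the limit, under median scaling. *NDUFS8*, which carries iron-sulfur clusters, was 5.65 and 5.75 in mock, 5.58 after the 5p strand and 5.10 after the 3p strand. With the 3p strand it fell by 0.60 (limma adjusted p = 0.0309), but on the deposited values its difference was −0.29, within the limit. *NDUFV1*, which binds NADH and the flavin, had differences of −0.12 and −0.35 after the 5p and 3p strands, and *NDUFS1*, an iron-sulfur subunit, had 0.26 and 0.33; limma called neither. *NDUFV2* had 0.20 and 0.41, and 1 of its 2 probes was called higher by limma for the 3p strand (adjusted p = 0.0411). On the deposited values *NDUFS1* and *NDUFV2* were past the limit after the 3p strand, at 0.64 and 0.62, but under median scaling they were −0.043 and 0.041.

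Accessory subunits made up the other changes in complex I. *NDUFB9*, of the membrane arm, was 8.09 and 7.95 in mock, 8.06 after the 5p strand and 7.06 after the 3p strand. Only the 3p array was low, and it fell by 0.96 (limma adjusted p = 0.0172). *NDUFS4*, whose mutations cause Leigh syndrome, was 4.35 and 4.32 in mock, 4.83 after the 5p strand and 4.53 after the 3p strand. Its difference of 0.50 after the 5p strand lay just past the limit and was 0.43 under median scaling and 0.49 without mock 2. *NDUFA1* was 6.47 and 6.53 in mock, 6.47 after the 5p strand and 6.98 after the 3p strand, and limma called it higher with the 3p strand (0.48, adjusted p = 0.0368, 0.74 on the deposited values and 0.11 under median scaling). The lowest values after the 5p strand were those of *NDUFA10* (−0.42), *NDUFB10* (−0.31) and *NDUFB6* (−0.30), none of them past the limit as a mean over probes. The brighter of the 2 probes of *NDUFA10* was past it, at −0.63 (limma adjusted p = 0.0558), and the dimmer was −0.21. *NDUFA10*, a subunit related to nucleoside kinases, was 2.75 and 2.74 in mock, 2.33 after the 5p strand and 2.31 after the 3p strand, so both strand arrays were below both mock arrays. For the 3p strand 1 of its 2 probes was called lower by limma (adjusted p = 0.0318). *NDUFA6* was 5.80 and 5.78 in mock, 5.57 after the 5p strand and 5.36 after the 3p strand, and limma called it lower with the 3p strand (−0.43, adjusted p = 0.0410), while on the deposited values the difference was −0.14. *NDUFAB1*, the mitochondrial acyl carrier protein, had differences of 0.14 and −0.23, and *NDUFV3* had 0.017 and −0.017; limma called neither gene.

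Complex II, the link between the tricarboxylic acid cycle and the chain, is built from nuclear genes alone. *SDHB*, the iron-sulfur subunit, was 4.74 and 4.73 in mock, 4.53 after the 5p strand and 3.65 after the 3p strand. The 3p array was the lowest of the 4, at 47.0% of the mock average, a difference of −1.09 (limma adjusted p = 0.0105). *SDHA*, the flavoprotein that oxidizes succinate, was 2.87 and 2.89 in mock, 2.92 after the 5p strand and 3.24 after the 3p strand over its 4 probes. Its difference after the 3p strand was 0.36, and 1 probe was called higher by limma (adjusted p = 0.0377). The membrane anchors *SDHC* and *SDHD* were not called by limma for either strand. *SDHC* was 1.89 and 1.60 in mock, 1.95 after the 5p strand and 2.16 after the 3p strand, with differences of 0.21 and 0.42. Without mock 1 these were 0.35 and 0.57, the latter past the limit, and without mock 2 the 5p difference was 0.060. *SDHD* was 2.34 and 2.2 in mock, 2.01 after the 5p strand and 1.86 after the 3p strand, with differences of −0.26 and −0.41. On the main scale *SDHB* alone of the 4 genes was past a limit after the 3p strand (27.2% and 30.5% of all genes). None was after the 5p strand (15.9% and 13.8%). On the deposited values *SDHA* and *SDHC* were past it too after the 3p strand, at 0.51 and 0.53, while under median scaling they were −0.018 and 0.045.

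Complex III had 9 genes with a value, and after the 5p strand none passed a limit on the main scale (15.9% and 13.8% of all genes). Under median scaling *UQCRC2* and *UQCRFS1* were at −0.52 and −0.55. After the 3p strand 2 of the 9 were below −0.5 and 2 above 0.5 (27.2% and 30.5% of all genes). *UQCRFS1*, the Rieske iron-sulfur protein, was 7.57 and 7.56 in mock, 7.09 after the 5p strand and 7.20 after the 3p strand. Both strand arrays lay below both mock arrays, by −0.47 and −0.36, and limma called neither. On the deposited values these differences were −0.395 and −0.065. *UQCRC1*, a core protein of the matrix side, was 4.46 and 4.42 in mock, 4.47 after the 5p strand and 3.14 after the 3p strand. Its difference of −1.29 with the 3p strand was called by limma (adjusted p = 0.00914), and the 5p array was close to the mock arrays. *UQCRC2*, the other core protein, was 4.38 and 4.34 in mock, 3.92 after the 5p strand and 3.34 after the 3p strand. Each strand array was below both mock arrays, by −0.44 (limma adjusted p = 0.0797) and −1.03 (limma adjusted p = 0.0114).

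Among the small subunits of complex III, *UQCR11* and *UQCRQ* lay above mock after the 3p strand under every scaling. *UQCR11* was 7.37 and 7.38 in mock, 7.62 after the 5p strand and 8.13 after the 3p strand, and with the 3p strand rose by 0.76 (limma adjusted p = 0.0163), though by 0.38 under median scaling. *UQCRQ* was 7.95 and 8.01 in mock, 7.77 after the 5p strand and 8.44 after the 3p strand, and limma called it higher with the 3p strand (0.45, adjusted p = 0.0411, 0.56 on the deposited values and 0.080 under median scaling). *UQCRH*, the hinge protein, had differences of 0.076 and 0.0089, and *UQCR10* had −0.14 and −0.096; limma called neither. *CYC1*, which carries the heme of cytochrome c1, was 4.69 and 4.75 in mock, 4.74 after the 5p strand and 4.32 after the 3p strand. Its difference of −0.40 was not called by limma (adjusted p = 0.0520).

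*UQCRB*, which helps bind ubiquinone, showed the widest spread between probes. One probe was −2.75 and −2.61 in mock, −3.17 with the 5p strand and −0.57 with the 3p strand, a difference of 2.11 for the latter (limma adjusted p = 0.00792). The other probe was 6.44 and 6.37 in mock, 6.65 and 6.34, with a difference of −0.062 for the 3p strand. The mean over both, 1.02, therefore rests on 1 probe, and the brightest probe gives −0.062. Probes on both sides of a limit were found for 3 subunit genes after the 5p strand and for 2 after the 3p strand.

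Complex IV had 4 genes below −0.5 and 1 above 0.5 of 16 after the 3p strand, against 27.2% and 30.5% of all genes, and 0 and 2 of 17 after the 5p strand, against 15.9% and 13.8%. *COX8A*, a small subunit of the ubiquitous enzyme, was 6.35 and 6.35 in mock, 6.36 after the 5p strand and 4.91 after the 3p strand. With the 3p strand it stood at 36.8% of the mock average, with differences of −1.39 and −1.50 on its 2 probes (limma adjusted p = 0.00860 and 0.00823). *COX7B* was 6.61 and 6.63 in mock, 6.63 after the 5p strand and 5.72 after the 3p strand, and fell by 0.90 with the 3p strand (limma adjusted p = 0.0129). For both genes the 5p array lay with the mock arrays and the 3p array below them. *COX5A* was 6.31 and 6.28 in mock, 5.99 after the 5p strand and 5.72 after the 3p strand, and fell by 0.58 with the 3p strand (limma adjusted p = 0.0251 and 0.0256 on its 2 probes), but on the deposited values its difference was −0.30, within the limit. *COX6B1*, at the side facing cytochrome c, was 7.26 and 7.28 in mock, 7.37 after the 5p strand and 6.82 after the 3p strand, and limma called it lower with the 3p strand (−0.45, adjusted p = 0.0375). Its 3p difference on the deposited values was −0.165. *COXFA4*, formerly *NDUFA4*, was 7.27 and 7.27 in mock, 7.80 after the 5p strand and 7.32 after the 3p strand, so it was high on the 5p array alone, by 0.53 (limma adjusted p = 0.0635). This was within the limit under median scaling and with normexp correction, at 0.46 in both. *COX4I1*, the common form of a regulatory subunit, had 0.10 and 0.34, and *COX6C* had 0.031 and −0.059; neither was called, though the value of *COX4I1* after the 3p strand was 0.60 on the deposited values and −0.035 under median scaling.

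Tissue isoforms and paralogs were a list of 13 symbols, and 2 of these, the earlier names of *COXFA4* and *COXFA4L2*, matched no current symbol, so *COXFA4* is not in its counts. The list had 0 lower and 1 higher of 9 after the 5p strand (15.9% and 13.8% of all genes) and 2 and 1 of 8 after the 3p strand (27.2% and 30.5%). Its genes included the lowest and the highest value of all subunits after the 3p strand, both of complex IV. *COX7B2*, a paralog of *COX7B* known from testis, was 3.97 and 3.89 in mock, 4.28 after the 5p strand and 1.26 after the 3p strand. The 3p array was far below the others, at 15.6% of the mock average, a difference of −2.68 (limma adjusted p = 0.00762, SE 0.0965). *COX8C*, the testis form of the *COX8* subunit, was −3.03 and −3.36 in mock, −3.45 after the 5p strand and −1.52 after the 3p strand. It was higher on the 3p array alone, 3.20-fold (difference 1.68, limma adjusted p = 0.0165), and by 0.52 with normexp correction. *COX8A* and *COX8C* thus lay on opposite sides of mock for the 3p strand. *COX4I2*, a form known from lung, was −4.54 and −4.22 in mock and −3.74 after the 5p strand, where its difference of 0.64, with 1 mock array not well above background, was 0.15 with normexp correction and 0.47 without mock 1. *COX6A2*, of heart and skeletal muscle, had differences of −0.37 and −0.28, and *COX6B2*, of testis, had 0.24 and 0.0079. *COX7A2L*, which takes part in joining complexes III and IV, had 0.048 and 0.32, and limma called none of these 3. On the deposited values *COX6A2* and *COX7A2L* were past a limit after the 3p strand, at −0.58 and 0.51, and under median scaling they were −0.66 and −0.052. With normexp correction the sign of *COX6A2* changed, to 0.0059 after the 5p strand and 0.064 after the 3p strand.

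Complex V had 7 of 18 genes below −0.5 and 0 above 0.5 after the 3p strand, against 27.2% and 30.5% of all genes. There limma called 10 lower and 0 higher (31.6% and 31.9% of all genes), with 11 at an unadjusted p under 0.05, a level that 11705 of 16662 genes reached. After the 5p strand none of the 18 passed a limit (15.9% and 13.8% of all genes), and values ran from −0.32 (*ATP5MC1*) to 0.27 (*ATP5PF*). In the catalytic head, *ATP5F1B*, the beta subunit that makes ATP, was 6.29 and 6.35 in mock, 6.30 after the 5p strand and 4.60 after the 3p strand. Only the 3p array was low, at 30.3% of the mock average, a difference of −1.72 (limma adjusted p = 0.00786, SE 0.0913). *ATP5F1A*, the alpha subunit beside it, was 6.22 and 6.21 in mock, 6.23 after the 5p strand and 5.83 after the 3p strand. Its difference of −0.38 was not called (limma adjusted p = 0.0504). *ATP5F1D*, the delta subunit of the rotor stalk, was 3.59 and 3.72 in mock, 3.57 after the 5p strand and 2.05 after the 3p strand, and fell by 1.61 with the 3p strand (limma adjusted p = 0.00907). *ATP5F1C* and *ATP5F1E*, the gamma and epsilon subunits of the same stalk, had differences of −0.18 and 0.12 after the 3p strand, and limma called neither.

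The outer stalk, which holds the head in place, had members that were lower and members within the limits. *ATP5PB*, subunit b, was 5.55 and 5.56 in mock, 5.33 after the 5p strand and 4.47 after the 3p strand, and fell by 1.09 with the 3p strand (limma adjusted p = 0.0104). *ATP5PO*, the protein that confers oligomycin sensitivity, was 7.68 and 7.63 in mock, 7.58 after the 5p strand and 6.59 after the 3p strand, and fell by 1.07 with the 3p strand (limma adjusted p = 0.0112). In both the 3p array was the low one. *ATP5PD* had differences of −0.043 and −0.075, and *ATP5PF* had 0.27 and 0.075, so these stalk subunits were within the limits after both strands.

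Of the genes for the proton-conducting c ring, *ATP5MC2* was 7.29 and 7.34 in mock, 7.39 after the 5p strand and 6.37 after the 3p strand, and fell by 0.94 with the 3p strand (limma adjusted p = 0.0127). *ATP5MC1* and *ATP5MC3* encode the same mature protein from other loci, and limma called both lower with the 3p strand, at −0.50 (adjusted p = 0.0319) and −0.41 (adjusted p = 0.0444). On the deposited values these differences were −0.20 and −0.12. Membrane subunits near the ring included *ATP5MF*, which was 6.75 and 6.68 in mock, 6.64 after the 5p strand and 6.14 after the 3p strand, and *ATP5MGL*, a copy of the *ATP5MG* gene. With the 3p strand *ATP5MF* fell by 0.57 and *ATP5MGL* fell by 0.54 (limma adjusted p = 0.0273 for *ATP5MGL*), though both were within the limit on the deposited values, at −0.32 and −0.29. *ATP5MG* itself was called lower at −0.49 (limma adjusted p = 0.0321), and its difference was −0.32 on the deposited values. *ATP5ME*, another membrane subunit, had −0.26 after the 5p strand and 0.077 after the 3p strand. *ATP5MK* had 0.25 and −0.067, and limma called neither of these 2 genes.

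**Figure D4:**
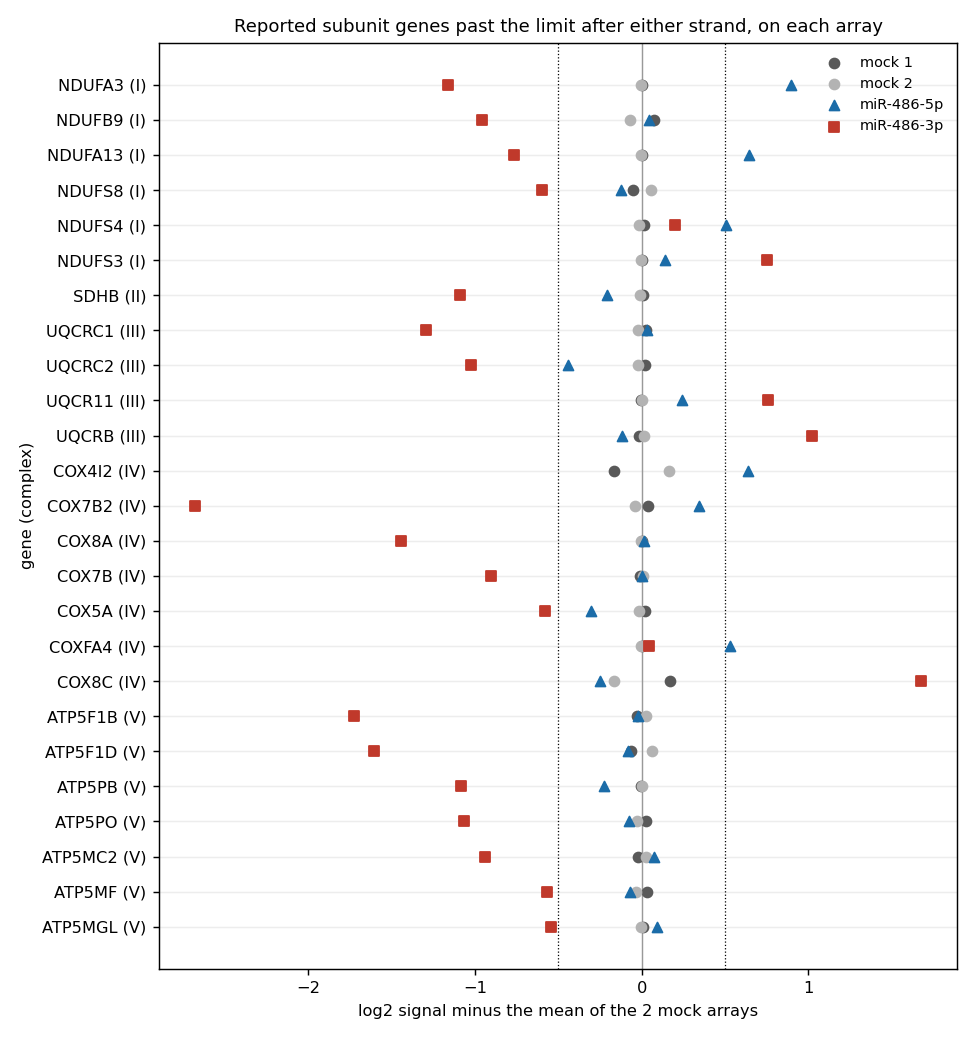
Levels of the reported subunit genes past a limit after either strand, on each of the 4 arrays, as log2 signal less the average of both mock arrays (horizontal axis), with genes and their complex on the vertical axis; circles are mock 1 and 2, triangles miR-486-5p, squares miR-486-3p, and dotted lines the limits of 0.5. NDUFA3 and NDUFA13 have the strand arrays on opposite sides of the mock arrays, and COX4I2 has no usable value after miR-486-3p.

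The strands were also compared with each other. limma called 26 of 85 subunit genes lower with the 3p strand than with the 5p strand and 7 higher, against 27.3% and 26.7% of all genes. This sets 1 array against 1 array, and the only measured spread is that between the mock arrays, which are not in the contrast, so these calls do not show that the strands differ. The lowest difference was that of *COX7B2*, −3.02, and the highest that of *COX8C*, 1.93. *NDUFA12*, within the limits against mock for both strands at 0.45 and −0.34, was −0.79 between them, and limma called 1 of its 2 probes lower with the 3p strand against mock (adjusted p = 0.0485). The comparisons with mock share the mock arrays, so their values are given side by side and not related to each other.

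Assembly factors, which build the complexes but are not part of them, had 6 of 50 genes lower and 5 higher after the 5p strand (15.9% and 13.8% of all genes), with a median of −0.14. After the 3p strand 22 were lower and 8 higher (27.2% and 30.5% of all genes), with a median of −0.37, and limma called 25 lower and 9 higher (31.6% and 31.9% of all genes). *UQCC2*, an assembly factor of complex III, was 4.67 and 4.67 in mock, 4.78 after the 5p strand and 1.01 after the 3p strand, and fell by 3.66 with the 3p strand (limma adjusted p = 0.00762). *COA7*, a factor of complex IV, fell by 2.31 with the 3p strand, while *COX19*, which serves copper delivery to the same complex, rose by 2.41. *NDUFAF1*, of complex I, was 2.22 and 2.18 in mock, 3.00 after the 5p strand and 3.65 after the 3p strand, so both strand arrays were above both mock arrays. *NDUFAF5* was −0.69 and −1.20, *COA5* −0.65 and 1.41, and *SDHAF2* 0.67 and −0.30 after the 5p and 3p strands.

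Cytochrome c, enzymes that pass electrons to ubiquinone, carriers of adenine nucleotides and phosphate, outer membrane channels and the ATP synthase inhibitor formed a list of 16 genes, 15 with a value. After the 5p strand 1 was lower and 0 higher (all genes 15.9% and 13.8%; list median −0.18), and after the 3p strand 10 were lower and 1 higher (all genes 27.2% and 30.5%), with a median of −0.64. In the 3p comparison, limma called 11 lower and 2 higher (31.6% and 31.9% of all genes). *CYCS*, cytochrome c, was 2.83 and 2.83 in mock, 2.63 after the 5p strand and 1.84 after the 3p strand, and fell by 0.99 with the 3p strand (lowest limma adjusted p of its 3 probes 0.00839). *ATP5IF1*, which inhibits ATP hydrolysis by complex V, was 5.82 and 5.76 in mock, 5.91 after the 5p strand and 5.03 after the 3p strand, and fell by 0.76 with the 3p strand. In both the 3p array was the lowest. The ends of the list after the 3p strand were *DHODH*, an enzyme of pyrimidine synthesis that passes electrons to ubiquinone, at −1.31 (limma adjusted p = 0.00908), and *ETFB*, part of the electron transfer flavoprotein, at 0.74 (limma adjusted p = 0.0169). *DHODH* was also the lowest after the 5p strand, at −0.73.

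Mitochondrial ribosome proteins, which translate the subunits encoded in the organelle, had 9 of 77 genes lower and 1 higher after the 5p strand (all genes 15.9% and 13.8%; list median −0.15) and 35 lower and 4 higher after the 3p strand (all genes 27.2% and 30.5%; list median −0.47). In the 3p comparison, limma called 44 lower and 7 higher (31.6% and 31.9% of all genes). *MRPS14* was 3.46 and 3.35 in mock, 1.04 after the 5p strand and 2.65 after the 3p strand, with a difference of −2.37 after the 5p strand (limma adjusted p = 0.0475). *MRPL58* had −1.09 and 0.59 and *MRPL24* 0.78 and −1.83 after the 5p and 3p strands. The lowest after the 3p strand were *MRPL15* (−1.94) and *MRPL11* (−1.84), and the highest *MRPL54* (0.94) and *MRPL55* (0.71). *MRPL53*, at 0.49 after the 5p strand, was within the limit.

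Genes for the expression of mitochondrial DNA had 4 of 32 lower and 0 higher after the 5p strand (15.9% and 13.8% of all genes) and 13 lower and 1 higher after the 3p strand (27.2% and 30.5%), with medians of −0.069 and −0.46. For the 3p strand, limma called 16 lower and 1 higher (31.6% and 31.9% of all genes). *TFAM*, which packages mitochondrial DNA and starts its transcription, was 1.62 and 1.41 in mock, 1.46 after the 5p strand and 1.09 after the 3p strand, and limma called neither difference. *ELAC2* and *PRORP*, which cut mitochondrial tRNAs from their precursors, had −0.80 and −0.73 after the 5p strand and −1.26 and −0.87 after the 3p strand. *MTERF1* (−1.71) and the elongation factor *TUFM* (−1.36) were lowest after the 3p strand. *GFM2*, of ribosome recycling, had 0.49 and 0.57, *MTERF4* had 0.35 and 0.14, and *POLG2* had −0.0035 and 0.41. Probes named for the 13 subunits encoded by mitochondrial DNA were not found by accession, and these subunits were not analysed here.

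Protein import genes had 10 of 38 lower and 2 higher after the 5p strand (all genes 15.9% and 13.8%; list median −0.20) and 15 lower and 6 higher after the 3p strand (all genes 27.2% and 30.5%; list median −0.34). In the 3p comparison, limma called 17 lower and 8 higher (31.6% and 31.9% of all genes). *TIMM17B* and *TOMM34* had −2.64 and −2.24 after the 3p strand, and *PMPCB*, a subunit of the peptidase that removes targeting sequences, had 1.43. *TIMM9* and *TOMM22* were lowest after the 5p strand, at −1.12 and −0.95, and *TIMM13* and *TIMM10B* highest, at 0.71 and 0.54.

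Genes of the tricarboxylic acid cycle and pyruvate dehydrogenase had 5 of 19 lower and 1 higher after the 5p strand (all genes 15.9% and 13.8%; list median −0.28) and 7 lower and 2 higher after the 3p strand (all genes 27.2% and 30.5%; list median −0.37). For the 3p strand, limma called 8 lower and 2 higher (31.6% and 31.9% of all genes). *CS*, citrate synthase, was 5.57 and 5.54 in mock, 5.28 after the 5p strand and 3.24 after the 3p strand, and fell by 2.31 with the 3p strand (lowest limma adjusted p of its 2 probes 0.00762). *PDHA1* was lower after both strands, at −1.08 and −0.97. *IDH2* was −1.02 after the 5p strand and 0.33 after the 3p strand, *IDH3G* was 0.72 and 1.23, and *IDH3B* was 0.42 and −0.42. *DLD* and *PDHX* had −1.20 and 0.67 after the 3p strand.

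Regulators of mitochondrial biogenesis had 3 of 17 genes lower and 1 higher after the 5p strand (15.9% and 13.8% of all genes) and 6 lower and 6 higher of 18 after the 3p strand (27.2% and 30.5%). There limma called 9 lower and 5 higher (31.6% and 31.9% of all genes). *PPARGC1A* was −2.80 and −3.04 in mock, −2.10 after the 5p strand and −1.84 after the 3p strand. Both strand arrays were above both mock arrays, by 0.82 (limma adjusted p = 0.0717) and 1.08 (limma adjusted p = 0.0218). *ESRRA*, a nuclear receptor that works with PGC-1alpha, was 2.65 and 2.79 in mock, 1.72 after the 5p strand and 1.85 after the 3p strand, with differences of −1.0 and −0.87. *NRF1* was −1.56 and −1.59 in mock, −2.10 after the 5p strand and −2.06 after the 3p strand, with differences of −0.53 (limma adjusted p = 0.0652) and −0.48 (limma adjusted p = 0.0345). *GABPA* was 0.86 and 0.75 in mock, 1.18 after the 5p strand and 0.54 after the 3p strand, and limma called neither difference. *MYC* was 5.04 and 4.86 in mock, 4.35 after the 5p strand and 1.62 after the 3p strand, a difference of −3.33 with the 3p strand (limma adjusted p = 0.00762), while *PPARA* was higher by 1.79. *PRKAA2*, at 0.41 and 0.36, was within the limits.

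**Figure D5:**
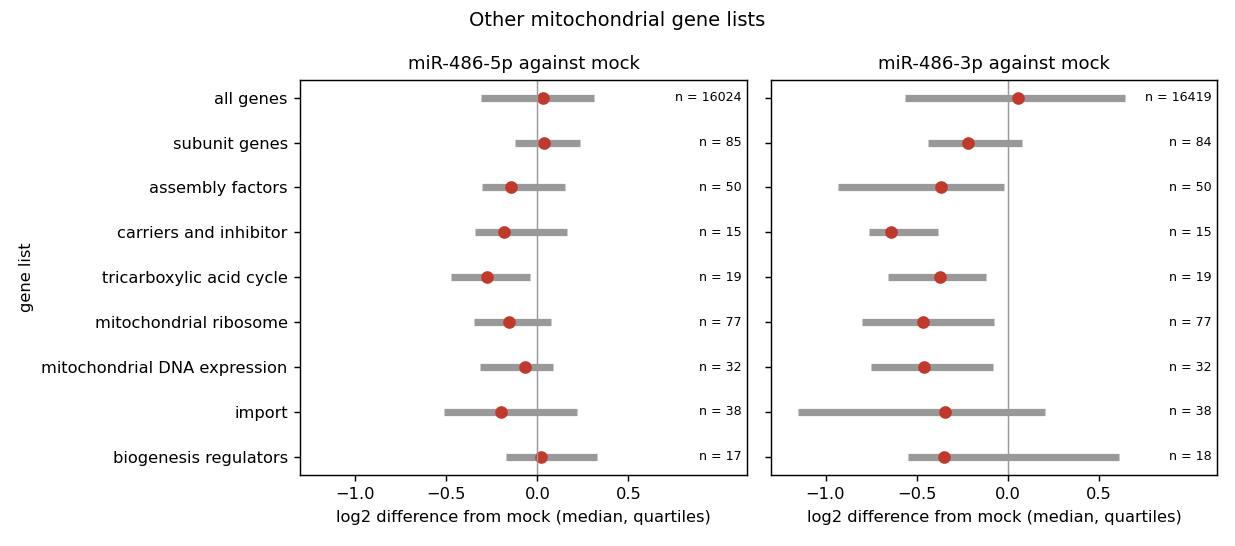
Median (red point) and quartiles (gray bar) of the log2 difference from mock (horizontal axis) for all genes, the subunit genes and 7 other mitochondrial gene lists (vertical axis), after miR-486-5p (left) and miR-486-3p (right), with the number of genes with a value. After miR-486-3p the list of carriers and the inhibitor has the lowest median, −0.64, and the 7 other lists stay below 0 under every scaling, while the subunit genes do not.

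After the 3p strand the medians of all 7 of these other mitochondrial lists stayed below 0 under every scaling and background setting, whereas that of the subunit genes did not. For the carriers the range was −1.02 to −0.50, and for the mitochondrial ribosome −0.84 to −0.29. After the 5p strand the median of the biogenesis regulators changed sign, from −0.057 to 0.025, and those of the other 6 lists stayed below 0. On the deposited values the counts for the 3p strand were 19 lower and 8 higher among assembly factors, 7 lower and 2 higher among the carriers and 25 lower and 6 higher in the mitochondrial ribosome, where all genes gave 29.1% and 27.9%. For the remaining lists they were 12 lower and 3 higher in mitochondrial DNA expression, 14 lower and 8 higher in import, 6 lower and 2 higher in the tricarboxylic acid cycle and 5 lower and 4 higher among the regulators. No test compared these lists with the subunit genes.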

How the data were processed

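The authors deposited, per array, spot intensities from Agilent Feature Extraction (its version is not given in the sources used here), already background-corrected, and a table of log2 values. That table correlated with the scanner signal at 0.9996 to 0.9999, had a median of 2.76 on every array, and its normalization is not stated. From the processed signal, log2 was taken, each array's 75th percentile subtracted, outlier spots (50 to 72 per array) dropped and spots of a probe averaged over 58201 probes. Probes entered a comparison with mock where the mock pair, or else the array of that strand, passed the scanner's background call. Where no array of a side passed, that side was raised to the lowest passing signal, and the difference is a bound; no subunit gene has such a value against mock. Where 1 mock array of 2 passed, both signals were used unchanged, as for *COX4I2*. A gene is the mean over its probes. Symbols came from RefSeq accessions in a table of GRCh38.p14, used for names only: 31104 of 33080 listed probes matched.

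limma 3.58.1 (R 4.3.3) was fitted on 33498 probes, all 4 arrays in 3 groups, with Benjamini-Hochberg adjustment at 0.05, and was tested on simulated data; genes with 1 or more called probes count as called. Its 1 residual degree of freedom lies between the mock arrays, its prior had 1.75, and the strand arrays are taken to vary like the mock arrays. Tables were made with pandas 2.3.3 and numpy 2.4.6 (Python 3.11.15) and figures with matplotlib 3.10.9.

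The members and lists were chosen with earlier results of these data known. Named genes are, per strand and complex, the 3 lowest and 2 highest among genes well above background on all 4 arrays; all of complex II; the tissue isoforms and paralogs; the gene with the widest spread between probes; the 2 lowest and 2 highest of each other mitochondrial list (for the carriers, the ends after the 3p strand); and *PPARGC1A*, *NRF1*, *GABPA*, *TFAM*, *CYCS* and *ATP5IF1*. Other subunits named were chosen after their values were seen, and 1 subunit past a limit is counted but its own values are not reported here. *COXFA4* and *COXFA4L2*, formerly *NDUFA4* and *NDUFA4L2*, were counted in complex IV. Left out were 8 assembly factors named *NDUFAF*, 2 readthrough genes, 194 pseudogenes and 6 noncoding genes. The alternatives were other scalings, normexp with an offset of 50 on median signals, other filters and probe rules, the authors' values, each mock array left out, a limit of 1, and other tests.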

Additional observations from a re-analysis of the deposited data

Results flagged for a closer look

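*NDUFA3* and *NDUFA13* stood out because they lay past the limits in opposite directions with the 2 strands. Between the 3p and 5p strands *NDUFA3* was −2.05 (0.89 for 5p and −1.16 for 3p against mock), and *NDUFA13* was −1.40 (0.64 and −0.76), each from 1 probe and 1 array per strand. The 3p difference of *NDUFA13* from mock was −0.505 on the deposited values. Among noncoding genes that the symbol rule leaves out, *NDUFV2-AS1* had a signal above both mock arrays with the 5p strand. One of its 2 probes was −3.53 and −3.94 in mock and −2.45 with the 5p strand, a difference of 1.29 (limma adjusted p = 0.0697). The other was −0.59 and −0.81 in mock and 0.99 with the 5p strand, a difference of 1.69 (limma adjusted p = 0.0475). With the 3p strand the first probe was not well above background, so its difference of −0.65 is a bound with the signal raised to the lowest passing one, and that of the second was −0.79. *NDUFV2* itself had 0.20 with the 5p strand and 0.41 with the 3p strand.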

How the results depend on the processing

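The 75th percentile setting gave 0 lower and 6 higher subunit genes after *miR-486-5p* and 18 lower and 4 higher after *miR-486-3p*. Counts are given where they moved by over 1.5 times, and medians where they moved by at least 1 SD of that same median between leaving out 1 mock array and leaving out the other (0.00089 to 0.073); the cause was not tested. The share of all genes stands in brackets after most counts. Under all settings 120 such values stayed within those bounds and 122 did not. The bound of a median rests on 2 values and can be very narrow, and the settings that define it are counted too. The tally therefore does not measure how stable the results are. Of the 22 subunit genes past a limit after *miR-486-3p*, 18 kept their side of it on the authors' values and 4 did not. Median scaling gave medians after *miR-486-5p* of −0.039 (all subunits), 0.12 (complex I), −0.16 (complex II), −0.20 (complex III), −0.033 (complex IV), −0.11 (complex V) and medians after *miR-486-3p* of −0.59 (all subunits), −0.58 (complex I), −0.40 (complex II), −0.47 (complex III), −0.59 (complex IV), −0.83 (complex V). It gave 2 lower past the limit after *miR-486-5p* (19.1%), 48 lower and 2 higher past the limit after *miR-486-3p* (41.7% and 17.8%), 1 lower called after *miR-486-5p* (14.1%), 54 lower and 2 higher called after *miR-486-3p* (45.5% and 20.5%), 42 lower and 2 higher called between the strands (38.5% and 19.1%). Quantile normalization gave medians after *miR-486-5p* of 0.077 (all subunits), 0.24 (complex I), −0.061 (complex II), 0.092 (complex IV), −0.0048 (complex V) and medians after *miR-486-3p* of 0.023 (all subunits), 0.078 (complex I), 0.10 (complex II), 0.042 (complex III), 0.021 (complex IV), −0.17 (complex V). It gave 15 higher past the limit after *miR-486-3p* (28%), 17 higher called after *miR-486-3p* (31.6%), 12 higher called between the strands (27.8%). The percentile taken over probes well above background on every array gave medians after *miR-486-3p* of −0.13 (all subunits), −0.12 (complex I), 0.059 (complex II), −0.0088 (complex III), −0.13 (complex IV), −0.36 (complex V). It gave 8 higher past the limit after *miR-486-3p* (34.2%), 13 higher called after *miR-486-3p* (35.4%). Normexp correction gave medians after *miR-486-5p* of −0.0019 (all subunits), 0.17 (complex I), −0.14 (complex II), −0.013 (complex III), 0.0059 (complex IV), −0.061 (complex V) and medians after *miR-486-3p* of −0.30 (all subunits), −0.26 (complex I), −0.11 (complex II), −0.15 (complex III), −0.51 (complex V). It gave 1 lower and 3 higher past the limit after *miR-486-5p* (8.30% and 4.59%), 18 lower and 19 higher called after *miR-486-5p* (23.1% and 22.2%), 50 lower and 17 higher called after *miR-486-3p* (34.5% and 46%), 46 lower and 13 higher called between the strands (31.7% and 35.3%). No filter on dim probes gave medians after *miR-486-5p* of 0.041 (all subunits) and medians after *miR-486-3p* of −0.27 (complex IV). It gave 0 higher called after *miR-486-5p* (0%), 3 higher called after *miR-486-3p* (20.4%), 14 lower and 2 higher called between the strands (14.1% and 14.2%). Only probes well above background on every array gave medians after *miR-486-5p* of 0.035 (all subunits). It gave 5 lower and 6 higher called after *miR-486-5p* (20.7% and 17.9%), 14 higher called after *miR-486-3p* (35.5%). The brightest probe gave medians after *miR-486-5p* of 0.044 (all subunits), 0.15 (complex I), −0.16 (complex II), 0.025 (complex III), −0.027 (complex V) and medians after *miR-486-3p* of −0.11 (complex II), −0.26 (complex III). It gave 1 lower past the limit after *miR-486-5p* (16.6%). The median of the probes gave medians after *miR-486-5p* of 0.033 (all subunits), −0.088 (complex II), −0.081 (complex III) and medians after *miR-486-3p* of −0.14 (complex III). The authors' log2 values gave medians after *miR-486-5p* of 0.080 (all subunits), 0.23 (complex I), −0.061 (complex II), 0.085 (complex IV), −0.010 (complex V) and medians after *miR-486-3p* of 0.020 (all subunits), 0.080 (complex I), 0.10 (complex II), 0.042 (complex III), 0.018 (complex IV), −0.18 (complex V). It gave 15 higher past the limit after *miR-486-3p* (27.9%), 0 higher called after *miR-486-5p* (0%), 16 lower and 18 higher called after *miR-486-3p* (31.3% and 28.9%), 11 higher called between the strands (24.6%). A limit of 1 gave 0 higher past the limit after *miR-486-5p* (2.53%), 10 lower and 2 higher past the limit after *miR-486-3p* (14.1% and 14.8%). An intensity trend in limma gave 16 lower and 26 higher called after *miR-486-5p* (25% and 22.2%), 48 lower and 18 higher called after *miR-486-3p* (37% and 38.2%), 45 lower and 15 higher called between the strands (34.9% and 34.7%). limma on gene averages gave 3 lower and 6 higher called after *miR-486-5p* (16.9% and 13.5%), 14 higher called after *miR-486-3p* (33.6%). An ordinary t-test without adjustment gave 11 lower and 16 higher called after *miR-486-5p*, beside 4344 of all 16662 genes on either side. The same t-test after Benjamini-Hochberg adjustment gave 0 higher called after *miR-486-5p* (0%), 0 lower and 0 higher called after *miR-486-3p* (0% and 0%).

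Without mock 1 or mock 2, medians ran from 0.036 to 0.038 for all subunits after *miR-486-5p*, 0.17 to 0.21 for complex I after *miR-486-5p*, −0.12 to −0.10 for complex III after *miR-486-5p*, 0.018 to 0.050 for complex IV after *miR-486-5p*, −0.10 to −0.0017 for complex II after *miR-486-3p*, −0.24 to −0.18 for complex IV after *miR-486-3p*. *UQCRB* after *miR-486-3p* turned from 1.02 to −0.062 with the brightest probe. No paired analysis was possible because a single array stands for either strand. limma without a mock array was not run, since no residual degree of freedom is left, nor was a slide or scan block, since there was 1 slide and 1 scan. Signal over background limits *COX4I2* and *COXFA4L2*. One array per strand limits every value, and differences near 0.5 lie within what another scaling can move. After *miR-486-3p* larger differences did too, as *NDUFS3* and *UQCR11*, at 0.75 and 0.76, were both 0.38 under median scaling.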
